A study of Mus musculus with 15 samples.

Results

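The immunity-related GTPases (IRG proteins) are a mouse family of interferon-inducible GTPases, and 7 of their genes were described here: *Irgm1*, *Irgm2*, *Igtp*, *Iigp1*, *Ifi47*, *Tgtp1* and *Tgtp2*. The members were chosen by gene symbol, after the Ensembl identifiers of the count table had been matched to mouse symbols of build GRCm38. They are 7 of the 51763 identifiers in the table, and 7 of 7 passed the filter on low counts that kept 16919 genes. RNA sequencing was performed on bone marrow-derived macrophages (BMDMs) of wild-type female C57BL/6NTac mice aged 8 to 10 weeks, matured with M-CSF. BMDMs of 5 mice were pooled before seeding, so the 3 libraries of a condition were technical replicates of 1 pool, and every error and p-value here describes how cultures and libraries varied, while variation from mouse to mouse is not covered. The study asked how 2 redox forms of the alarmin HMGB1 change macrophages beside a classical pro-inflammatory stimulus.

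All BMDMs were kept for 24 h with the stimulus. PBS was the unstimulated control. The frHMGB1 group received 5 µg/mL of fully reduced HMGB1, and the dsHMGB1 group 5 µg/mL of the disulfide form. The LPS group received 1 µg/mL of LPS-EK, a lipopolysaccharide of *E. coli*. The LPS/IFNγ group received LPS-EK with 20 ng/mL of IFNγ, and its LPS dose is given as 1 µg/mL in the treatment field of the samples and as 100 ng/mL in the protocol text, so a difference between LPS/IFNγ and LPS may hold a difference in LPS dose too, and the 2 cannot be told apart. Library totals ran from 40934540 to 80925478 counts.

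IRG proteins form 2 classes that differ in the nucleotide-binding motif. The regulators, called GMS proteins, sit on membranes of the cell and hold the effectors in an inactive state there, while the effectors, called GKS proteins, gather on the vacuoles of intracellular parasites and bacteria and help to disrupt them. Their genes are known targets of IFNγ and of type I interferon in macrophages. *Irgm1*, *Irgm2* and *Igtp* encode the regulators, and *Iigp1*, *Ifi47*, *Tgtp1* and *Tgtp2* encode proteins of the effector class.

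The third PBS library stood apart from the other two. Its log2 CPM values (counts scaled to the library total) had Pearson's r = 0.928 and 0.923 over genes with PBS 1 and PBS 2, against 0.988 between PBS 1 and PBS 2, and 0.979 to 0.986 between the libraries of the other groups. Processed pseudogenes took 1.49% of its counts, against 0.816% in PBS 1 and 0.805% in PBS 2. Fold changes of the members against PBS are therefore also given without that library where one moved by over 1.5 times or a call changed. For the other gene lists, the numbers of called genes are given without it where they changed.

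The 7 genes lie in 3 places. *Irgm1*, *Tgtp1*, *Tgtp2* and *Ifi47* share 235 kb of chromosome 11 (chr11:48861968-49096974) with 4 other IRG gene models, and *Igtp* and *Irgm2* share a stretch of the same chromosome (chr11:58187739-58222782) with 1 other model, *Gm12250*. *Iigp1* lies on chromosome 18 (chr18:60376027-60392634, plus strand) beside 3 other models.

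RefSeq promoter windows of GRCm38.p6, from 250 bases before to 50 bases after a gene's start, were found for 6 of the 7 members, and *Iigp1* was not among them. They were searched on both strands for the interferon-stimulated response element (ISRE), as GAAANNGAAA, and for the gamma-activated sequence (GAS), as TTCNNNGAA. These letters overlap in no position of the stretches shown. The ISRE letters were in 5 of the 6 windows, against 3.44% of 32851 mouse windows of the same length. The GAS letters were in 4 of the 6, against 8.30% of all windows, and both motifs were in the same 4, against 0.454%.

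The stretches that hold the motifs are shown because 4 members share their arrangement, with the GAS letters upstream of the ISRE letters. Capitals mark the GAS and ISRE matches, and each stretch reads 5′ to 3′ on the strand of its gene. The stretch of *Igtp* is chr11:58199499-58199543 (plus strand), that of *Irgm2* chr11:58214890-58214934 (plus), that of *Tgtp1* chr11:48992302-48992346 (minus), that of *Tgtp2* chr11:49064261-49064305 (minus) and that of *Irgm1* chr11:48871428-48871457 (minus).
Igtp: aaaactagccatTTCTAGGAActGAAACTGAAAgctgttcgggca
Irgm2: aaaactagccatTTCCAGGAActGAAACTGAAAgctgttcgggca
Tgtp1: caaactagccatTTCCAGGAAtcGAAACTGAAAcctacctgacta
Tgtp2: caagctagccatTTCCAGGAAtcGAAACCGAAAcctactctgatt
Irgm1: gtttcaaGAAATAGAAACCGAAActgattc
The *Igtp* and *Irgm2* stretches differ at 1 of 45 bases, and those of *Tgtp1* and *Tgtp2* at 8 of 45. The ISRE letters begin 34 bases before the RefSeq start of *Igtp*, 64 before that of *Irgm2*, 77 before that of *Tgtp1* and 70 before that of *Tgtp2*. *Irgm1* holds 2 overlapping ISRE matches, the farther one beginning 30 bases before its start, with no GAS letters in the window, and this stretch lies in an exon of a longer transcript of the gene. The window of *Ifi47* holds neither set of letters. A match describes the letters only, and binding of a factor was not measured.

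*Irgm1* (ENSMUSG00000046879, chr11:48861968-48871683, minus strand) encodes the regulator best known for a role in mycobacterial and parasitic infection and in autophagy. Its normalized counts were 3178, 3421 and 2309 in the PBS libraries and 3242, 3370 and 2965 in the frHMGB1 libraries. They were 61087, 60855 and 65078 with dsHMGB1, 113372, 111953 and 112675 with LPS, and 158415, 163497 and 164644 with LPS/IFNγ. The PBS and frHMGB1 libraries overlapped, every stimulated library of the other groups lay above both, and these 3 groups did not overlap each other. *Irgm1* rose with dsHMGB1 against PBS, with a log2 fold change of 4.39 (SE 0.13, adjusted p = 6.43e-11). It rose by 5.24 on the log2 scale with LPS (SE 0.13, adjusted p = 1.07e-11) and by 5.77 with LPS/IFNγ (SE 0.13, adjusted p = 4.98e-12). LPS exceeded dsHMGB1 by 0.85 (SE 0.13, adjusted p = 6.68e-04), and LPS/IFNγ exceeded LPS by 0.53 (SE 0.13, adjusted p = 0.00722). Bulk counts do not show whether every macrophage changed or the share of expressing cells did, and the 2 cannot be told apart.

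*Irgm2* (ENSMUSG00000069874, chr11:58199618-58222782, plus strand) encodes a regulator found mainly at the Golgi. The PBS libraries held 1250, 1305 and 870.4 normalized counts, and the frHMGB1 libraries 1168, 1252 and 1054. With dsHMGB1 the counts were 29321, 33298 and 31816, with LPS 38058, 39316 and 39920, and with LPS/IFNγ 44182, 43995 and 45651. The 3 stimulated groups again stood apart in the same order, but by smaller steps than those of *Irgm1*. For dsHMGB1 and LPS this rests on the size factors, since by CPM the dsHMGB1 libraries (500.1, 568.0 and 545.8) enclosed those of LPS (524.5, 529.8 and 535.6). Against PBS, *Irgm2* rose by 4.78 with dsHMGB1 (SE 0.14), by 5.09 with LPS (SE 0.14) and by 5.28 with LPS/IFNγ (SE 0.14). The step from dsHMGB1 to LPS, 0.31 on the log2 scale (95% CI 0.05 to 0.58), missed the threshold at adjusted p = 0.221, and so did the step from LPS to LPS/IFNγ, 0.19 (95% CI −0.07 to 0.45, adjusted p = 0.292). With only the 2 conditions compared in the fit, both steps passed, at adjusted p = 0.0116 and 4.92e-05. LPS/IFNγ exceeded dsHMGB1 by 0.50 (SE 0.14, adjusted p = 0.0187), and this call was lost without dsHMGB1 1, dsHMGB1 3, LPS/IFNγ 1, LPS/IFNγ 2 or LPS/IFNγ 3, with adjusted p of 0.0879, 0.0546, 0.0564, 0.0567 and 0.0681.

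*Igtp* (ENSMUSG00000078853, chr11:58199556-58207591, plus strand) encodes the regulator IRGM3 of the endoplasmic reticulum and lipid droplets. Its exons share 162 bases with those of *Irgm2* on the same strand, 8.01% of the exon bases of *Igtp*. Normalized counts were 720.9, 787.0 and 813.0 in PBS and 832.8, 828.8 and 775.5 in frHMGB1. They were 27633, 24878 and 26939 with dsHMGB1, 40465, 39560 and 40746 with LPS, and 50609, 51764 and 52564 with LPS/IFNγ. Of the 7 genes, *Igtp* had the smallest standard errors against PBS with dsHMGB1, LPS and LPS/IFNγ (0.07, against 0.13 or more), and dsHMGB1, LPS and LPS/IFNγ formed 3 separate steps. The log2 fold changes against PBS were 5.10 with dsHMGB1, 5.71 with LPS and 6.07 with LPS/IFNγ, each with an SE of 0.07 and an adjusted p of 1.22e-13, 3.99e-14 and 4.18e-14. *Igtp* was 1.52-fold higher with LPS than with dsHMGB1 (adjusted p = 1.23e-04) and 1.28-fold higher with LPS/IFNγ than with LPS (adjusted p = 0.00143).

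*Iigp1* (ENSMUSG00000054072) encodes IRGA6, an effector that loads onto the vacuole of *Toxoplasma gondii*. It was nearly silent without a stimulus, with 87, 40 and 16 counts (56.2, 25.2 and 18.7 normalized) in PBS and 40, 34 and 38 counts in frHMGB1. The dsHMGB1 libraries held 5182, 6440 and 5489 normalized counts, the LPS libraries 12720, 13292 and 11121, and the LPS/IFNγ libraries 93555, 91062 and 92523. Each LPS/IFNγ library was far above each LPS library, and the PBS and frHMGB1 libraries overlapped. *Iigp1* rose by 7.37 with dsHMGB1 against PBS (SE 0.26, adjusted p = 5.58e-10), by 8.49 with LPS (SE 0.26, adjusted p = 1.15e-10) and by 11.39 with LPS/IFNγ (SE 0.26, adjusted p = 1.67e-11), the last of these a 2676-fold change and the largest of the 7 genes. Without PBS 1 these values were 7.97, 9.09 and 11.99, the last a 4065-fold change. LPS exceeded dsHMGB1 2.17-fold (adjusted p = 0.00501). LPS/IFNγ exceeded LPS 7.46-fold (95% CI 5.51 to 10.1, adjusted p = 2.50e-06). Without PBS 1, the highest PBS library, the difference between frHMGB1 and PBS was 0.80 on the log2 scale and was called (adjusted p = 0.0163), against 0.19 with all libraries (adjusted p = 0.803).

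*Ifi47* (ENSMUSG00000078920, chr11:49076587-49096974, plus strand) encodes IRGD, a GKS protein whose own part in defence is less well known. Its exons share 111 bases with *Olfr56* on the same strand and 106 bases with the pseudogene *Gm12188* on the opposite strand. PBS libraries held 669.8, 809.1 and 1412 normalized counts, and frHMGB1 libraries 888.3, 939.2 and 645.0. The counts reached 53095, 46009 and 47284 with dsHMGB1, 82061, 79289 and 79412 with LPS, and 123606, 121637 and 123162 with LPS/IFNγ. PBS 3 was the highest of the 6 unstimulated and frHMGB1 libraries, and the other 3 groups lay above them without overlap. *Ifi47* rose by 5.67 with dsHMGB1 (SE 0.23, adjusted p = 4.14e-10), by 6.38 with LPS (SE 0.23, adjusted p = 9.74e-11) and 128-fold with LPS/IFNγ (SE of the log2 value 0.23, adjusted p = 4.91e-11). The steps above dsHMGB1 were close to the threshold. LPS exceeded dsHMGB1 1.65-fold (adjusted p = 0.0248), a call lost without dsHMGB1 2 (adjusted p = 0.0813), dsHMGB1 3 (0.0779) or LPS 1 (0.0587). LPS/IFNγ exceeded LPS 1.53-fold (adjusted p = 0.0282), and this call was lost whichever of the 6 libraries was left out, with adjusted p of 0.0883 without LPS 1, 0.107 without LPS 2, 0.108 without LPS 3, 0.0956 without LPS/IFNγ 1, 0.0906 without LPS/IFNγ 2 and 0.0937 without LPS/IFNγ 3, and with RLE factors (adjusted p = 0.0513).

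*Tgtp1* (ENSMUSG00000078922, chr11:48985327-48994172, minus strand) and *Tgtp2* (ENSMUSG00000078921, chr11:49057194-49064206, minus strand) encode near-identical copies of IRGB6, an effector that is among the first to reach the parasite vacuole. Their coding sequences differ at 4 of 1245 aligned bases (99.7% identity), against 57.8% to 73.2% identity in the other pairs of members. Of all stretches of 50 bases in the transcripts, 18.8% of those of *Tgtp1* and 13.4% of those of *Tgtp2* occur in no other gene, while for the other 5 members this share was 88.2% to 99.6%. How the counting treated reads that match several places is not given in the sources used here, so the split of counts between *Tgtp1* and *Tgtp2* is uncertain. *Tgtp1* also shares 223 exon bases with *Gm12185* on the same strand.

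*Tgtp1* was close to the limit of detection without a stimulus, at 9, 6 and 3 counts in the PBS libraries and 1, 6 and 1 in the frHMGB1 libraries. In normalized counts, dsHMGB1 libraries held 254.4, 266.3 and 245.5, LPS libraries 539.1, 497.7 and 423.5, and LPS/IFNγ libraries 3539, 3363 and 3759. All 9 libraries with dsHMGB1, LPS or LPS/IFNγ were above the 6 others, and LPS/IFNγ stood far above LPS. *Tgtp1* rose by 5.82 with dsHMGB1 against PBS (SE 0.36, adjusted p = 1.71e-09), by 6.76 with LPS (SE 0.36, adjusted p = 2.55e-10) and by 9.62 with LPS/IFNγ (SE 0.36, adjusted p = 1.23e-11). LPS/IFNγ exceeded LPS 7.29-fold (95% CI 6.16 to 8.64, adjusted p = 3.87e-07), and LPS exceeded dsHMGB1 1.91-fold (adjusted p = 0.00490).

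*Tgtp2* counted 31.0, 29.6 and 2.34 normalized counts in PBS and 56.7, 43.9 and 25.9 in frHMGB1. The values were 3079, 3929 and 3578 with dsHMGB1, 8911, 9321 and 8828 with LPS, and 15170, 15400 and 15861 with LPS/IFNγ. The lowest value, that of PBS 3, rests on 2 counts, and frHMGB1 overlapped PBS. *Tgtp2* rose by 7.32 with dsHMGB1 (SE 0.38, adjusted p = 2.63e-08), by 8.67 with LPS (SE 0.38, adjusted p = 4.59e-09) and by 9.45 with LPS/IFNγ (SE 0.38, adjusted p = 2.27e-09). Without PBS 3 the log2 fold change of LPS/IFNγ against PBS was 8.99. LPS exceeded dsHMGB1 2.56-fold (adjusted p = 0.0137), a call lost without dsHMGB1 1 (adjusted p = 0.0540) or dsHMGB1 3 (0.0520). The step from LPS to LPS/IFNγ was 1.72-fold (95% CI 1.07 to 2.75) and was not called (adjusted p = 0.105), although the 2 groups did not overlap, and with those 2 conditions fitted alone it was called (adjusted p = 4.20e-13). With the counts of *Tgtp1* and *Tgtp2* summed into 1 feature, which removes the uncertain split, the step was 2.00-fold and called (adjusted p = 0.0264), and the pair rose by 7.15, 8.48 and 9.48 on the log2 scale with dsHMGB1, LPS and LPS/IFNγ against PBS.

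**Figure D1:**
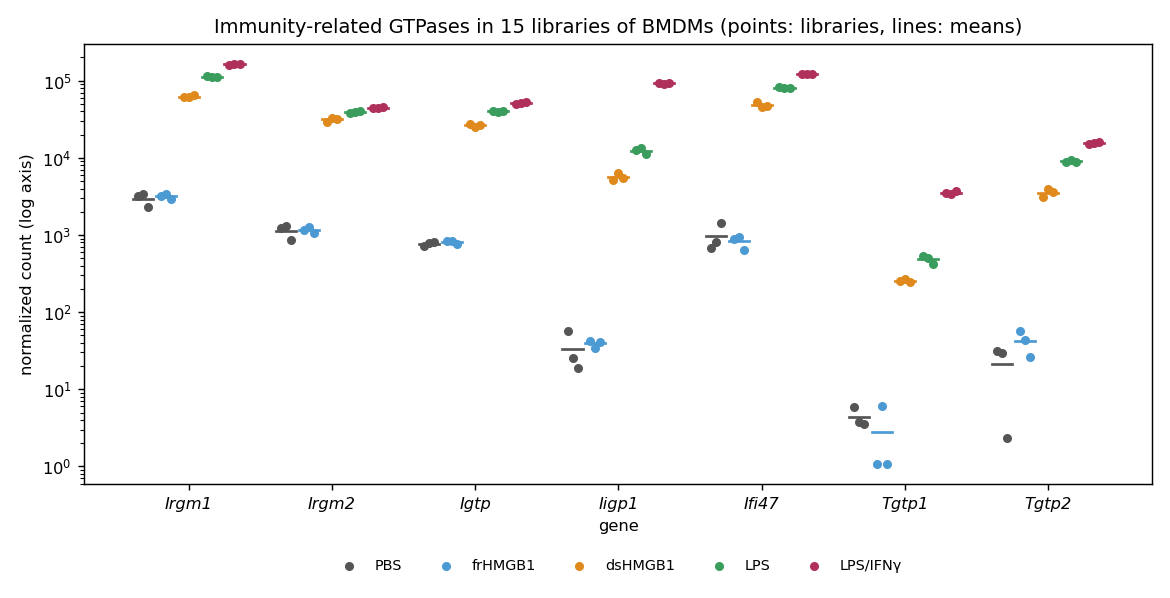
Normalized counts (log axis) of the 7 genes in each of the 15 libraries, with points for libraries and lines for the means of the 5 conditions. PBS and frHMGB1 points overlap for every gene, and the dsHMGB1, LPS and LPS/IFNγ points lie above them, from 62340 to 162200 on average for *Irgm1* and from 255 to 3554 for *Tgtp1*.

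Against PBS, frHMGB1 changed none of the 7 genes by the edgeR test, where 1.31% of the 16919 tested genes were called higher. Of the 7, 0 also had an unadjusted edgeR p under 0.05, and 0 were called by DESeq2's Wald test. The log2 fold changes ran from −0.68 for *Tgtp1* to 0.93 for *Tgtp2*, with a median of 0.07 against −0.01 for all tested genes. The intervals of *Irgm1* (95% CI −0.15 to 0.35), *Irgm2* (−0.26 to 0.29) and *Igtp* (−0.07 to 0.22) were narrow, whereas those of *Tgtp1* (−1.90 to 0.54) and *Tgtp2* (0.14 to 1.72) spanned 0.267- to 1.46-fold and 1.10- to 3.30-fold, on few counts, and 6 of the 8 counts of *Tgtp1* with frHMGB1 came from frHMGB1 2. The number of all genes called in this comparison depended on PBS 3, with 222 higher and 963 lower with it and 1459 higher and 1576 lower without it, but the number of members called was 0 both ways.

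Disulfide HMGB1 raised 7 of 7 members against PBS, where 23.3% of all tested genes were called higher. Their median log2 fold change was 5.67, against −0.10 for all genes. LPS raised 7 of 7, against 26.7% of all genes, with a median of 6.38 against −0.21. That all-gene median was −0.27 in the edgeR fit and −0.10 with LPS and PBS fitted alone on 15049 genes, a shift far smaller than any of the members' changes, and its cause was not tested. LPS/IFNγ raised 7 of 7 members, against 29.0% of all genes, with *Ifi47*, at 128-fold, in the middle of the 7 and a log2 median of −0.12 for all genes. By CPM instead of size factors, the log2 ratios of means of the 7 were smaller, 4.01 to 7.01 with dsHMGB1, 4.38 to 7.96 with LPS and 4.58 to 10.70 with LPS/IFNγ, and each stayed above PBS without overlap. These 3 comparisons share the PBS libraries. By rank of log2 fold change among the 16919 genes, the members stood between 94 and 381 with dsHMGB1, between 85 and 419 with LPS, and between 28 and 437 with LPS/IFNγ. Without PBS 3, 7 of 7 were called in each of the 3, and the log2 fold change that moved most was that of *Tgtp2* with LPS/IFNγ, from 9.45 to 8.99 as its fold went from 699 to 507.

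The isoforms of HMGB1 differed from each other directly. dsHMGB1 exceeded frHMGB1 in 7 of 7 members, against 27.7% of all genes called higher, with log2 fold changes from 4.29 for *Irgm1* to 7.18 for *Iigp1*. LPS exceeded dsHMGB1 in 6 of 7, against 10.6%, and *Irgm2* was the exception. The size of this step rests in part on the size factors. By CPM the log2 ratios of means were smaller, such as 0.27 against 0.60 in *Igtp* and 0.38 against 0.72 in *Ifi47*. They reached 1.02 in *Tgtp2*, against 1.35, and by CPM the libraries still did not overlap in these 6 genes. LPS/IFNγ exceeded dsHMGB1 in 7 of 7, against 16.7%, with the smallest difference in *Irgm2* (0.50) and the largest in *Iigp1* (4.02) and *Tgtp1* (3.80). By CPM these 3 values were 0.18, 3.69 and 3.48.

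At the addition of IFNγ to LPS the members' estimates differed in size. LPS/IFNγ exceeded LPS in 5 of 7 members, against 16.3% of all tested genes called higher, and the median difference was 0.61 on the log2 scale, against 0.00 for all genes. The steps of *Iigp1* (2.90, 7.46-fold) and *Tgtp1* (2.87, 7.29-fold) were the largest, the next being *Tgtp2* at 0.78 (1.72-fold), and their 95% intervals did not meet those of the other 5. For *Tgtp1* this rests on the uncertain split from *Tgtp2*, since the step of the summed pair was 2.00-fold (SE of the log2 value 0.30) and did not stand apart from those of other members. The regulators had the smallest steps, 0.53 in *Irgm1*, 0.36 in *Igtp* and 0.19 in *Irgm2*. A test of whether the step differs between genes was not made.

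**Figure D2:**
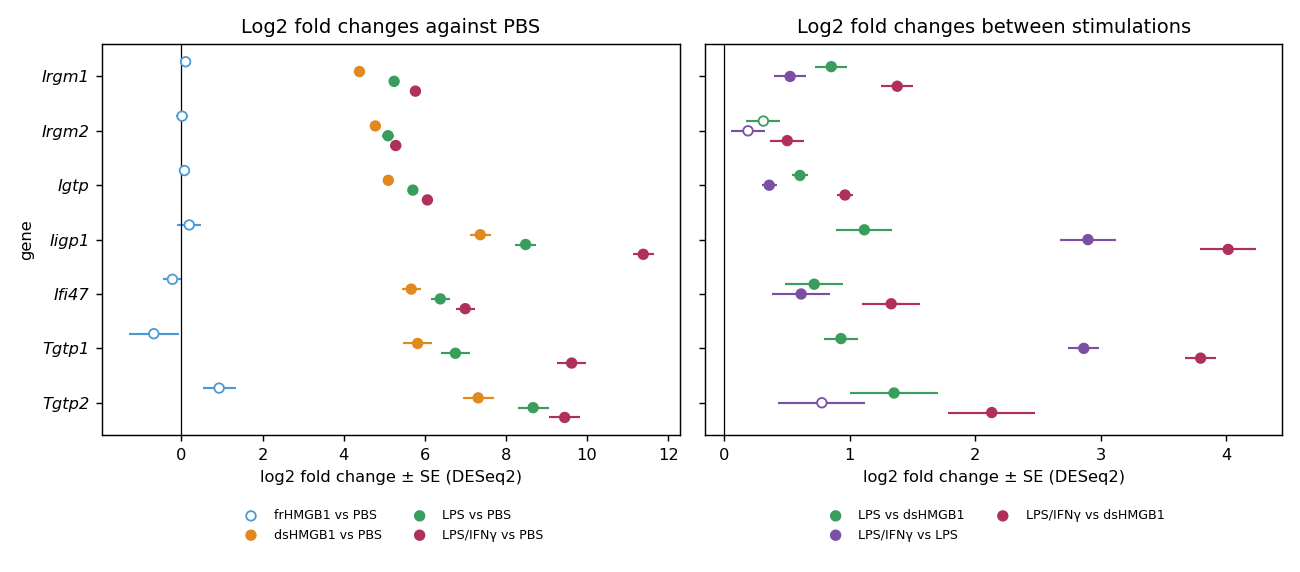
Log2 fold changes of the 7 genes with standard errors, against PBS (left panel) and between the stimulations (right panel), with filled points called by edgeR and open points not called. frHMGB1 points are open and run from −0.68 (*Tgtp1*) to 0.93 (*Tgtp2*), and in the right panel *Iigp1* and *Tgtp1* stand apart in LPS/IFNγ against LPS at 2.90 and 2.87.

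For each of the 7 genes the order of the mean normalized counts was the same from dsHMGB1 upward, with dsHMGB1 below LPS and LPS below LPS/IFNγ. By CPM this held for 6, and *Irgm2* had a mean of 538 with dsHMGB1 and 530 with LPS. PBS and frHMGB1 were at the bottom for each gene, with overlapping libraries and no call for any with all libraries in the fit, and with frHMGB1 the lower mean in *Ifi47* and *Tgtp1*. dsHMGB1 and LPS did not differ by the test in *Irgm2*, and LPS and LPS/IFNγ did not in *Irgm2* and *Tgtp2*, although in normalized counts the libraries of each pair of neighbours above PBS and frHMGB1 did not overlap. Such separation upward was common, at 26.5% of all tested genes from dsHMGB1 to LPS and 31.4% from LPS to LPS/IFNγ.

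Levels of different genes were compared per kb of merged exons. In PBS, *Irgm1* had the highest mean level, at 511 ± 101 normalized counts per kb (SD, n = 3), with *Ifi47* at 390 ± 159, *Igtp* at 383 ± 23.5 and *Irgm2* at 309 ± 64.2. These 4 spreads ran into their neighbours, and the mean of *Ifi47* rests on PBS 3, where it was the highest of the 4, while in PBS 1 and PBS 2 it was the lowest. *Tgtp2* (7.15 ± 5.51 per kb), *Iigp1* (5.74 ± 3.44) and *Tgtp1* (1.36 ± 0.393) were lower by an order of magnitude or more. In LPS/IFNγ the order was *Ifi47* at 49660 ± 418 per kb, *Irgm1* at 27910 ± 571, *Igtp* at 25540 ± 486, *Iigp1* at 15860 ± 215, *Irgm2* at 12090 ± 246, *Tgtp2* at 5268 ± 120 and *Tgtp1* at 1109 ± 61.9. *Iigp1* thus passed *Irgm2* on this scale. The order rests on the length used, since per kb of the longest transcript *Iigp1* stood at 29600 ± 401 and also passed *Igtp* at 25540 ± 486.

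The summed level of the 7 genes per kb was 1607 ± 69.9 in PBS and 1620 ± 145 in frHMGB1 (SD, n = 3). It reached 54350 ± 1347 with dsHMGB1, 87700 ± 642 with LPS and 137400 ± 1324 with LPS/IFNγ. The 7 genes took 0.0102% to 0.0151% of all counts in the PBS libraries and 0.673% to 0.674% in the LPS/IFNγ libraries. *Iigp1* made up 0.363 ± 0.233% of the summed level in PBS, 1.81 ± 0.253% with dsHMGB1, 2.42 ± 0.222% with LPS and 11.5 ± 0.190% with LPS/IFNγ. *Irgm2* went the other way, from 19.3 ± 4.04% in PBS to 15.7 ± 1.38% with dsHMGB1, 12.1 ± 0.368% with LPS and 8.80 ± 0.0961% with LPS/IFNγ, although its own level was highest there. *Ifi47* held 24.2 ± 9.77% in PBS (17.6% to 35.4%) and 20.4 ± 2.20% in frHMGB1. Its share was 36.3 ± 2.02% with dsHMGB1, 37.0 ± 0.462% with LPS and 36.1 ± 0.406% with LPS/IFNγ. The ratio of the 3 regulators to the 4 effectors, by summed level per kb, was 1.80 to 4.24 in the PBS libraries, with the lowest in PBS 3, and 3.30 to 4.26 in frHMGB1. It was 1.37 to 1.55 with dsHMGB1, 1.29 to 1.36 with LPS and 0.889 to 0.923 with LPS/IFNγ. These last 3 ranges did not overlap each other or the PBS range, and with 3 libraries against 3 an exact two-sided permutation test cannot go below p = 0.10. Per kb of the longest transcript the mean ratio was 2.93 in PBS, 1.25 after dsHMGB1, 1.15 after LPS and 0.762 after LPS/IFNγ. On that scale the dsHMGB1 libraries (1.16 to 1.32) overlapped those of LPS (1.12 to 1.18), so the separation of these 2 groups rests on the length used. The effector sum was mostly *Ifi47*, so the ratio mainly sets the regulators against that gene. Per kb of merged exons, the mean of *Ifi47* was 389.6 of 403.9 in PBS and 19730 of 21990 with dsHMGB1. It was 32450 of 37800 with LPS and 49660 of 71900 with LPS/IFNγ.

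**Figure D3:**
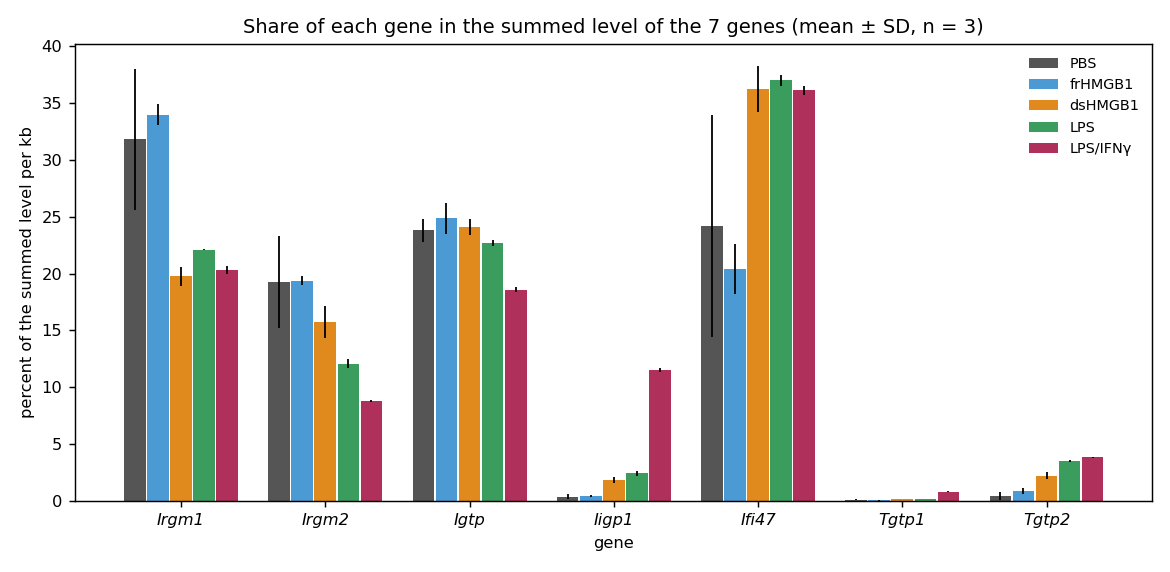
Share of each gene in the summed level of the 7 genes per kb of merged exons, in percent, as mean with SD over 3 libraries of each condition. The share of *Iigp1* goes from 2.42% with LPS to 11.5% with LPS/IFNγ, while that of *Irgm2* goes from 12.1% to 8.80%.

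Among the counts of the pair, the share of *Tgtp1* differed between LPS and LPS/IFNγ. It was 5.71% (exact 95% binomial interval 5.18 to 6.26), 5.07% (4.55 to 5.63) and 4.58% (4.07 to 5.12) in the LPS libraries. In the LPS/IFNγ libraries it was 18.9% (18.3 to 19.5), 17.9% (17.4 to 18.5) and 19.2% (18.6 to 19.7). The dsHMGB1 libraries had 7.63%, 6.35% and 6.42%. The intervals cover counting error only, since reads of 1 molecule are not independent after PCR. LPS/IFNγ lay above LPS and dsHMGB1 in every library, and the exact permutation test gave its smallest possible p, 0.10 (two-sided, adjusted p = 0.167 over 10 pairs of conditions). In PBS and frHMGB1 the pair had 5 to 57 counts a library, and the intervals were wide, such as 14.7 to 94.7 in PBS 3 with 3 counts of *Tgtp1* and 2 of *Tgtp2*. Whether these shares follow the transcripts or the assignment of shared reads was not tested.

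**Figure D4:**
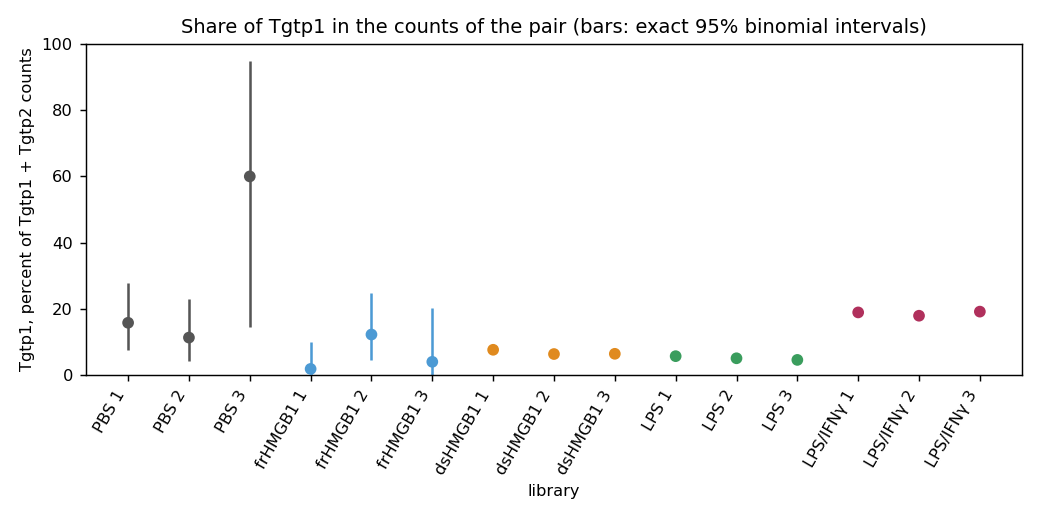
Counts of *Tgtp1* as a percent of the counts of *Tgtp1* and *Tgtp2*, for each library, with exact 95% binomial intervals. The LPS/IFNγ libraries lie at 17.9% to 19.2% and the LPS libraries at 4.58% to 5.71%, and the PBS and frHMGB1 intervals are wide.

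The genes whose pattern was most like that of a member were taken by Pearson's r of log2(normalized count + 1) over the 15 libraries, which share their 5 conditions, among genes that averaged 100 normalized counts or more. Between pairs of the 7 members r ran from 0.952 (*Tgtp1* and *Tgtp2*) to 0.998 (*Igtp* and *Ifi47*). The most like gene was *Ppp2r5a* for *Irgm1* (r = 0.999), *Parp14* for *Irgm2* (0.999), *Zup1* for *Igtp* (0.999), *Gm12185* for *Iigp1* (0.997), *Apobec3* for *Ifi47* (0.999), *Gm4841* for *Tgtp1* (0.996) and *Tank* for *Tgtp2* (0.998). *Irf1*, which encodes a transcription factor of the interferon response, was the third gene for *Igtp* (0.999) and the second for *Ifi47* (0.998). *Cxcl9*, a chemokine gene induced by IFNγ, was the second for *Tgtp1* (0.994), with means of 32560 normalized counts in LPS and 461500 in LPS/IFNγ. With Spearman's correlation 1 of these 21 neighbours was kept, so the ranking among genes this alike rests on the measure.

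Of 10 other gene models of the family, 9 passed the filter, and *Irgc1*, with 7 to 25 counts a condition, did not. The edgeR test called 0 of 9 in frHMGB1 against PBS, with 0 at an unadjusted p under 0.05 and 0 by DESeq2. It called 6 of 9 higher with dsHMGB1, 9 of 9 with LPS and 9 of 9 with LPS/IFNγ, where the medians were 3.62, 4.51 and 5.85. Without PBS 3 the dsHMGB1 numbers were 8 higher and 1 lower. With 2 conditions fitted alone, *9930111J21Rik1* and *9930111J21Rik2* lost their calls with LPS (adjusted p = 0.0957 and 0.0901) and with LPS/IFNγ (0.103 and 0.0652). *Gm12250*, which encodes IRGB10 and lies beside *Igtp*, rose by 6.14 with dsHMGB1, 6.73 with LPS and 6.77 with LPS/IFNγ (SE 0.09 each). *Irgq*, a distant member of the family on chromosome 7, changed least, by 0.58 with LPS/IFNγ (SE 0.14, adjusted p = 0.00455). From LPS to LPS/IFNγ, 4 of 9 were higher with a median of 0.39. They were the 3 models beside *Iigp1* on chromosome 18, *F830016B08Rik* (3.63, SE 0.48, adjusted p = 9.41e-05), *Gm4841* (3.54, SE 0.12, adjusted p = 6.21e-07) and *Gm4951* (0.89, SE 0.15, adjusted p = 0.00220), and *Gm12185* (1.23, SE 0.10, adjusted p = 4.67e-06), which overlaps *Tgtp1*. *Gm4841* had only 3 counts over the PBS libraries, 437 over those of LPS and 7148 over those of LPS/IFNγ.

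Other genes lie among the members. Of 5 further tested genes between *Irgm1* and *Ifi47*, 4 were higher with dsHMGB1, 4 higher and 1 lower with LPS, and 5 higher with LPS/IFNγ against PBS. Of all tested genes, 23.3%, 26.7% and 29.0% were called higher in these 3 comparisons. From LPS to LPS/IFNγ, 1 of the 5 was higher (*Gm12186*, also the 1 lower with LPS) and 1 lower (*Gm12187*), against 16.3% and 9.36% of all genes. Of the 5, *Olfr56* and *Gm12188* share 111 and 106 exon bases with *Ifi47*, so they are not independent of it. With frHMGB1, where no member was called, *Gm12186* was lower (−3.33, SE 0.50, adjusted p = 0.00190). The 1 tested gene beside *Iigp1*, the pseudogene *Gm5970*, was called higher with frHMGB1 on a mean of 3.545 normalized counts against 0 (adjusted p = 0.00832), and also with dsHMGB1, LPS and LPS/IFNγ. *Olfr56*, an olfactory receptor gene whose exons overlap *Ifi47*, had 10.9 normalized counts in PBS, 2566 in LPS and 1941 in LPS/IFNγ, so its mean was lower with LPS/IFNγ than with LPS (not called, adjusted p = 0.445) while that of *Ifi47* was higher. Reads of *Ifi47* could be counted for it, and its part in this was not tested.

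The guanylate-binding proteins (GBPs) are larger interferon-inducible GTPases that act on the same vacuoles, and 11 of 11 were tested. They were higher in 11 of 11 with dsHMGB1, LPS and LPS/IFNγ against PBS, with medians of 6.73, 7.42 and 8.65, or 6.67, 7.36 and 8.01 with *Gbp10* and *Gbp11*, which had 1 and 2 counts in PBS, set against 3 counts. *Gbp4* (11.09, SE 0.53) and *Gbp5* (11.07, SE 0.32) rose most among those with more counts, and *Gbp2*, which had the highest level per kb in LPS/IFNγ, rose by 9.18 (SE 0.15). In frHMGB1 1 of 11 was called higher, *Gbp11*, on 10 counts against 2 (adjusted p = 0.0423, and 0.0823 with no filter on low counts), and DESeq2's Wald test called *Gbp2* in its place. An unadjusted p under 0.05 was found in 5 of the 11 (*Gbp11*, *Gbp2*, *Gbp3*, *Gbp5* and *Gbp8*), and in 2745 of all 16919 tested genes. All 11 estimates lay above 0, from 0.37 upward with a median of 0.48. They share the same PBS libraries, PBS 3 among them, so their signs are not independent. From LPS to LPS/IFNγ, 6 of 11 were higher with a median of 1.37. *Gbp2b* (2.69, SE 0.27) and *Gbp4* (2.63, SE 0.47) had steps close to those of *Iigp1* and *Tgtp1*, while that of *Gbp5* was 0.51 (SE 0.31, adjusted p = 0.222) and not called.

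Of the interferon genes, *Ifnb1* alone passed the filter among 5, with 6 counts over the PBS libraries, 4 with frHMGB1, 1725 with dsHMGB1, 3724 with LPS and 9356 with LPS/IFNγ. *Ifng* had 0 counts in PBS, frHMGB1 and LPS, 5 with dsHMGB1 and 7 with LPS/IFNγ. Of 7 receptor and kinase genes, 6 were higher with dsHMGB1, 6 with LPS, and 5 higher and 1 lower with LPS/IFNγ, or 6, 7, and 5 higher and 2 lower without PBS 3. *Jak1* lost its dsHMGB1 call with 2 conditions fitted alone. The 1 lower was *Ifngr2* (−0.32, SE 0.06, adjusted p = 0.00105), not called with no filter on low counts (0.0579) or with 2 conditions fitted alone (0.0838). From LPS to LPS/IFNγ 3 of the 7 were lower, *Ifnar1* (−0.85, SE 0.14, adjusted p = 9.68e-04), *Ifngr1* (−0.82, SE 0.10, adjusted p = 2.41e-04) and *Ifngr2* (−0.52, SE 0.06, adjusted p = 2.62e-04), and the last 2 encode the chains of the IFNγ receptor. All 7 genes for transcription factors of the pathway rose with dsHMGB1, LPS and LPS/IFNγ, *Irf1* by 4.29, 4.64 and 4.91. From LPS to LPS/IFNγ, *Irf8* (2.07, SE 0.06) and *Ciita* (1.98, SE 0.25) rose, *Irf9*, a subunit of the factor that binds the ISRE, fell by 0.90 (SE 0.08, adjusted p = 3.09e-05), and *Irf1* (0.27, SE 0.13) was not called. Of 5 inhibitors of the pathway, 4 were higher with dsHMGB1 and 5 with LPS and with LPS/IFNγ, and *Socs1*, which dampens IFNγ signalling, rose by 8.45 (SE 0.22) with LPS/IFNγ. From LPS to LPS/IFNγ, *Socs1* (0.81) and *Pias1* (0.39) were higher and *Usp18* was lower (adjusted p = 0.00450).

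With frHMGB1 against PBS few genes of these lists were called, where 2745 of all 16919 tested genes had an unadjusted p under 0.05. The edgeR test called 0 of the 7 receptor and kinase genes (2 at an unadjusted p under 0.05, *Ifnar1* and *Ifngr1*, and *Ifngr1* by DESeq2) and 0 of the 7 transcription factor genes (*Stat2* unadjusted, 0 by DESeq2). Of the inhibitors it called *Socs3* (1.14, SE 0.22, adjusted p = 0.00437), though not with 2 conditions fitted alone (0.254). It called 0 of 10 type I interferon-stimulated genes (*Mx1* and *Oasl2* unadjusted, *Mx1* by DESeq2), 0 of 9 genes known for their response to IFNγ (0 unadjusted, 0 by DESeq2) and 0 of 11 ATG8 conjugation genes (0 and 0). Without PBS 3, where 8.41% of all tested genes were called higher, so were 3 type I genes, 2 IFNγ genes and 1 gene each of the receptors and kinases, the transcription factors, the inhibitors and the GBPs, and 0 members.

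Of 10 type I interferon-stimulated genes, 10 were higher with dsHMGB1, LPS and LPS/IFNγ against PBS, but 6 were lower with LPS/IFNγ than with LPS, at a median of −1.22, with *Ifit3* at −2.52 (SE 0.27) and *Rsad2* at −1.47 (SE 0.18). Of 9 genes known for their response to IFNγ, 6 were higher with dsHMGB1, 7 with LPS and 6 with LPS/IFNγ, or 9 of 9 in each without PBS 3, and *H2-Ab1* lost its LPS call with 2 conditions fitted alone. From LPS to LPS/IFNγ 3 of these 9 were higher, *Cxcl9* (3.83, SE 0.10), *Ido1* (2.68, SE 0.42) and *Nos2* (1.32, SE 0.08), and the median was −0.30. The 2 lower were *Fcgr1* (−0.46, SE 0.14, adjusted p = 0.0126) and *H2-Aa* (−0.30, SE 0.08, adjusted p = 0.0273), the latter not called with no filter on low counts (0.0927) or on protein-coding genes alone (0.0608). None of the 7 members was called lower there, where 2765 of all tested genes were higher and 1583 lower, or 4564 and 4435 with the 2 conditions fitted alone.

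**Figure D5:**
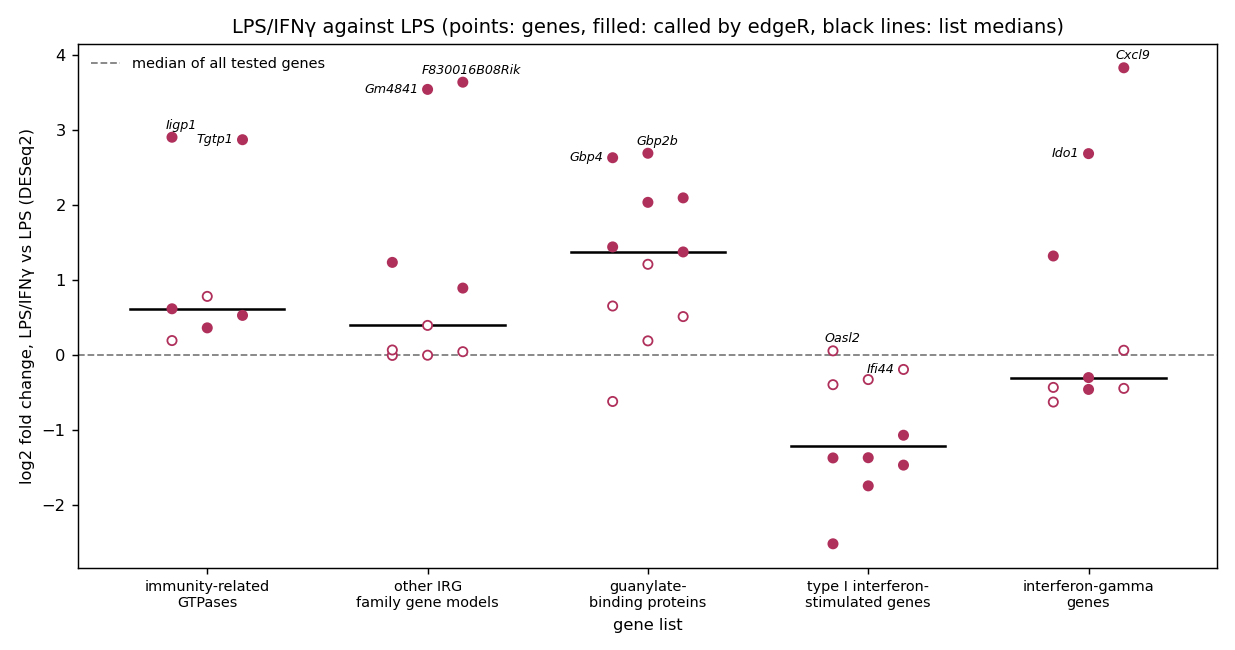
Log2 fold changes of LPS/IFNγ against LPS for the genes of 5 lists, with filled points called by edgeR, open points not called, black lines for list medians and a dashed line for the median of all tested genes; the 2 highest genes of each list are named. *Iigp1* and *Tgtp1* stand above the other members, and the type I interferon-stimulated genes have a median of −1.22.

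Genes of the ATG8 conjugation machinery, which places IRG and GBP proteins on vacuoles, were called in both directions. Of 11 tested, 1 was higher and 4 lower with dsHMGB1, where 24.2% of all tested genes were called lower, and 2 higher and 6 lower with LPS (36.2%) and with LPS/IFNγ (31.2%), or, without PBS 3, 2 higher and 4 lower with dsHMGB1 and 4 higher and 6 lower with each of the others. The 1 higher with dsHMGB1 was *Atg16l1*, and the 4 lower were *Atg7*, *Map1lc3a*, *Map1lc3b* and *Gabarapl1*. When 2 conditions were fitted alone, *Map1lc3a* lost its calls with dsHMGB1 (adjusted p = 0.175), LPS and LPS/IFNγ, and *Atg10* those with LPS and LPS/IFNγ. With LPS/IFNγ *Atg16l1* rose by 2.25 (SE 0.10) and *Atg3* by 0.86 (SE 0.19), while *Atg7* fell by 1.60 (SE 0.09) and *Atg5* by 1.28 (SE 0.08), and *Gabarapl2* was not called (−0.29, SE 0.22).

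Both motifs were in 2 of 6 promoter windows of the other IRG models and in 2 of 5 of the GBPs, and the ISRE letters in 3 of 6 and 5 of 5. Among the type I interferon-stimulated genes 4 of 8 windows held the ISRE letters and 0 of 8 held both, and among the IFNγ genes the numbers were 1 of 5 and 0 of 5.

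Marker genes matched the labelled cell type. All 7 macrophage markers passed the filter, and *Lyz2* was the most counted. Their summed CPM was 21600 to 25970 in PBS and 26780 to 27040 in frHMGB1. It was 18400 to 19640 with dsHMGB1, 14880 to 15500 with LPS and 13150 to 13450 with LPS/IFNγ, so by CPM the sum was lower where the members were higher. *Lyz2* alone took 9140 to 20450 CPM a library, so the sum follows mainly this gene. Its mean normalized counts were 852000 in PBS, 771700 with dsHMGB1, 824100 with LPS and 681300 with LPS/IFNγ. By the edgeR test against PBS, 2 of the 7 markers were higher and 0 lower with dsHMGB1, 3 and 1 with LPS, and 3 and 2 with LPS/IFNγ. Their median log2 fold changes were 0.24, 0.12 and 0.21. Without PBS 3 these calls were 3 and 1, 3 and 1, and 4 and 2. With frHMGB1, 2 were higher without PBS 3 and 0 with all libraries. With 2 conditions fitted alone, *Csf1r* lost its calls with LPS and LPS/IFNγ, and *Adgre1* and *Lyz2* those with LPS/IFNγ. Defining markers of T cells (*Cd3d*, *Cd3e*, *Cd3g* and *Cd8a*), NK cells (*Ncr1* and *Gzma*), neutrophils (*Mpo* and *Ly6g*) and erythroid cells (*Hbb-bs* and *Hba-a1*) had 0 counts in each library, and 0 of 3 B cell and 0 of 5 erythroid markers passed the filter. One marker each passed of 5 for T cells (*Cd4*), 6 for neutrophils (*Camp*) and 4 for NK cells (*Klrb1c*). *Cd4* was not called against PBS with all libraries, but without PBS 3 it was lower with dsHMGB1, LPS and LPS/IFNγ. *Camp* rose by 4.03 with dsHMGB1 (SE 1.03, adjusted p = 0.00508) and by 3.07 with LPS (SE 1.05, adjusted p = 0.0244), on 8 counts in PBS, 110 with dsHMGB1 and 34 with LPS. Summed CPM ran from 13.5 to 35.4 for T cell markers, 0 to 0.728 for those of neutrophils and 0.0197 to 0.402 for NK cells. It was 0 to 0.152 for B cells (most counts in *Cd79a*) and 0 to 0.0891 for erythroid cells (most counts in *Alas2*). Fibroblast markers passed in 5 of 5, with *Col1a1* the most counted and summed CPM of 118 in PBS 3 to 282 in PBS 2, and 4 of 5 (*Col1a1*, *Col1a2*, *Col3a1* and *Dcn*) were called higher with LPS and with LPS/IFNγ than with PBS, the first 2 not with 2 conditions fitted alone, and 1 (*Dcn*) with dsHMGB1. With LPS/IFNγ 4 were higher and 1 lower without PBS 3, and with frHMGB1 1 was lower, against 0 with all libraries. By summed CPM the direction was not shared by the libraries, with 264, 282 and 118 in PBS and 220 to 223 with LPS/IFNγ. Dendritic cell markers passed in 2 of 3, led by *Xcr1*, with summed CPM of 0.912 to 14.2, and against PBS *Zbtb46* rose by 2.27 with dsHMGB1 (SE 0.38), 3.68 with LPS (SE 0.37) and 5.08 with LPS/IFNγ (SE 0.37). *Xcr1* rose by 2.35 with LPS (SE 0.37) and 2.59 with LPS/IFNγ (SE 0.37), and was lower with frHMGB1 (−1.45, SE 0.40, adjusted p = 0.0373), a call lost without PBS 3, on protein-coding genes alone and with 2 conditions fitted alone. *Zbtb46* and *Xcr1* thus rose with LPS and LPS/IFNγ, as the members did. The third marker, *Flt3*, did not pass the filter. It had 0 counts in PBS, frHMGB1 and dsHMGB1, 4 with LPS and 2 with LPS/IFNγ. With dsHMGB1, *Xcr1* (0.78) was not called with all libraries, while without PBS 3 both *Xcr1* and *Zbtb46* were called higher. Whether dendritic cells were present was not tested, nor was the part of other cells in the members' levels.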

How the data were processed

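Messenger RNA of 15 BMDM libraries, 3 for each of 5 conditions, was sequenced. The authors prepared stranded, paired-end libraries and deposited counts of reads per Ensembl gene, without normalization. Their processing notes name CASAVA, STAR, DESeq2 and build GRCm38, without versions. The counting program, its annotation, its use of strand and its treatment of reads with several matches were not given in the sources used here. GENCODE M21 gave symbols, exons and lengths for 51661 of 51763 identifiers, and 0 columns were without a sample.

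Genes were kept by filterByExpr (minimum count 10, minimum total 15) of edgeR 4.0.16 and tested with its quasi-likelihood F test, with TMM factors and all 15 libraries in 1 fit. P-values were adjusted by Benjamini-Hochberg over all 16919 genes and called under 0.05. Log2 fold changes, standard errors, 95% intervals and size factors for normalized counts came from unshrunken DESeq2 1.42.0 fits. The steps ran in R 4.3.3 and Python 3.11.15 with SciPy 1.17.1 and Biopython 1.88, and the fits were tested on simulated counts. Levels per kb used merged exons.

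The members and lists were chosen with earlier results of these data known. Outside the members, the rule for named genes took the 5 largest changes among the called genes of a list with LPS/IFNγ, genes with a textbook role beside IRG proteins, and the 3 most alike genes of each member. *F830016B08Rik*, *Gm12185*, *Ido1*, *Gbp2b*, *Gbp11*, *Irgq*, *Irgc1*, *Olfr56*, *Gm12186*, *Gm12187*, *9930111J21Rik1*, *9930111J21Rik2*, *Stat2*, *Oasl2*, *Fcgr1*, *H2-Aa*, *Gm5970*, *Camp*, *Gbp3*, *Gbp8*, the alternatives without PBS 3 and the list genes named for the step from LPS to LPS/IFNγ and from other small counts were chosen after their values were seen. Alternative settings planned beforehand left out single libraries, added a replicate block, fitted 2 conditions alone, summed *Tgtp1* and *Tgtp2*, kept only protein-coding genes, dropped the filter, took RLE factors or took DESeq2's Wald test. Others were Spearman's correlation, a lower mean count for alike genes and longest transcripts in place of merged exons, and, added later, CPM in place of size factors.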

Additional observations from a re-analysis of the deposited data

How the results depend on the processing

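Each log2 fold change of a member in the 8 comparisons was recomputed under the alternatives, and none changed direction among the called ones. Calls were the same in 56 of 56 results with DESeq2's Wald test, with no filter on low counts, with protein-coding genes alone and with the replicate block, in 48 of 48 with *Tgtp1* and *Tgtp2* summed and the pair set against *Tgtp1* (set against *Tgtp2*, the pair gained the call for LPS/IFNγ against LPS), in 55 of 56 with RLE factors and in 52 of 55 with the 2 conditions fitted alone, where *Tgtp1* did not pass the filter in frHMGB1 against PBS. The numbers did not pair the samples: of 30 correlations between the deviations of same-numbered libraries, 1 was over 0.1 (range −0.28 to 0.28), and with the replicate block 0 members were called in frHMGB1 against PBS and 7 with LPS/IFNγ. The number of members called in frHMGB1 against PBS was 0 to 1 with single libraries left out, the 1 being *Iigp1* without PBS 1. The count of all genes called moved more. In frHMGB1 against PBS it was 1185, of which 18.7% were higher, but 70 with protein-coding genes alone (58.6% higher), 189 with the 2 conditions alone (3.70% higher), 1124 with no filter (8.54% higher), and 839 (without frHMGB1 2) to 3035 (without PBS 3) with single libraries left out. With the 2 conditions alone it went to 4747 for dsHMGB1 against PBS, 6985 for LPS against dsHMGB1, 8580 for LPS/IFNγ against dsHMGB1, and 8999 for LPS/IFNγ against LPS (50.7% higher, against 63.6%). In dsHMGB1 against frHMGB1 the share of higher calls was 54.6%, and 65.4% with no filter. The causes were not tested. Depth limits *Tgtp1*, *Tgtp2* and *Iigp1* in PBS and frHMGB1, where single libraries held 1 to 87 counts.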
